A study of Mus musculus with 18 samples.

Results

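The regions of the repressive histone mark H3K9me3 (trimethylation of lysine 9 of histone H3) were mapped in mouse ES3 embryonic stem cells with and without TRIM28, and the lists of the 2 conditions are compared here. All regions of both deposited lists were taken, 37002 from wild type and 37221 from the knockout. These 74223 regions are part of 100659 rows in the 6 region and peak lists of the series. The labels describe 18 libraries, of which 4 belong to this experiment: an H3K9me3 immunoprecipitation (antibody ab8898) and a total input for each condition. ES3 cells are of the C57BL/6 strain and were grown in serum with LIF. Wild-type cells were cultured for 4 days, and knockout cells were taken 4 days after deletion by a Cre recombinase that 4-OHT switches on. The labels name no Cre treatment of the wild-type cells. The submitters state that the mark was lowered at that time but still present, so the knockout is an early one. The files hold the start and end of each region and no signal, so the depth is unknown and the strength of the mark within a region cannot be compared. Each condition has 1 list, so no difference below has a replicate check.

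TRIM28, also called KAP1, is a corepressor that KRAB zinc finger proteins bring to DNA. It recruits the methyltransferase SETDB1, which places H3K9me3, and HP1 proteins that bind the mark. In embryonic stem cells the system is known for silencing endogenous retroviruses, and H3K9me3 also covers clusters of zinc finger genes, the silent allele of imprinted control regions and the promoters of some germline genes.

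The Trim28 transcript stood at 1051 RPKM (reads per kilobase of transcript scaled to the reads of the library) in wild-type cells against 37.2 RPKM in knockout cells. All 5 ES cell markers were present in both conditions, with a summed level of 1200 RPKM in wild-type cells against 610.5 RPKM in knockout cells. Markers of the primitive endoderm summed to 4.08 and 106.6 RPKM over 5 genes, and those of the trophoblast to 11.4 and 352.0 RPKM over 4 genes. The trophoblast sum was set by the keratins Krt8 (4.16 and 178.8 RPKM) and Krt18 (6.60 and 164.0 RPKM). Cdx2 (0.273 and 1.59 RPKM) and Hand1 (0.406 and 7.69 RPKM) were under 1 RPKM in wild type and above it in the knockout. Fibroblast markers summed to 178.8 and 157.4 RPKM over 6 genes, a sum set by Fn1 (176.6 and 141.7 RPKM), which is not limited to fibroblasts. The other 5 were higher in the knockout, with Col1a1 at 0.425 and 9.93 RPKM, Thy1 at 1.63 and 4.03 RPKM, Col3a1 at 0.0138 and 1.26 RPKM, Col1a2 at 0.135 and 0.507 RPKM and Postn at 0 and 0.0350 RPKM. Of 4 macrophage markers, Cd68 stood at 23.1 and 25.1 RPKM, while Csf1r, Lyz2 and Ptprc were at 0 in wild type and at 0.451, 0.266 and 0.0107 RPKM in the knockout. The part of these other cell types in the region lists was not tested. In such bulk samples, fewer cells of a type and less RNA or less of the mark per cell cannot be told apart.

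Chromosomes 1, 6 and 14 stood apart from the other 18 chromosomes, and values without them are given for several results but not for every one that they change. This exclusion was chosen after seeing the data.

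A region is called retained when a knockout region shares at least 1 base with it, wild-type-only when none does, and knockout-only when it is in the knockout list and meets no wild-type region. A gene start is called covered in wild type only when it lies in a wild-type region and in no knockout region. Covered in the knockout only is the reverse. A region at such a start may still meet a region of the other list away from the start. The promoter sequences of 9 genes with a covered start are printed to show the starts that the lists differ in or share. They are the 250 bases before the annotated start in RefSeq (GRCm38.p6), 5′ to 3′ on the gene's strand, in lower case with each CG in capitals. The first 3 were chosen after their values were seen, because they are start regions of well-known germline and imprinted genes. Ddx4 encodes an RNA helicase of germ cells (chr13:112652311-112652560, minus strand), and Dazl an RNA-binding protein of germ cells (chr17:50293621-50293870, minus strand). Peg3 is a paternally expressed zinc finger gene (chr7:6730420-6730669, minus strand). The starts of these 3 genes were covered in wild type only.
Ddx4: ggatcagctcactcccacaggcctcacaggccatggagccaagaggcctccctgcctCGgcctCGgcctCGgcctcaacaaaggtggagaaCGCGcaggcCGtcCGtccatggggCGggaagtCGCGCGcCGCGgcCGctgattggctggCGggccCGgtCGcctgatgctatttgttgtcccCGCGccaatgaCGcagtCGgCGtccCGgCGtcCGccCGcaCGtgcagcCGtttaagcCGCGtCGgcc
Dazl: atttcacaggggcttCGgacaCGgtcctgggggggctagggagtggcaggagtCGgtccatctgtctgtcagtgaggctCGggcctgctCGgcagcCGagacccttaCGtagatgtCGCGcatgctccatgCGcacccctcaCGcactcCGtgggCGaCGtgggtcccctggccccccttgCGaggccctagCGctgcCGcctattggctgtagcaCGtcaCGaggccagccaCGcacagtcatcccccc
Peg3: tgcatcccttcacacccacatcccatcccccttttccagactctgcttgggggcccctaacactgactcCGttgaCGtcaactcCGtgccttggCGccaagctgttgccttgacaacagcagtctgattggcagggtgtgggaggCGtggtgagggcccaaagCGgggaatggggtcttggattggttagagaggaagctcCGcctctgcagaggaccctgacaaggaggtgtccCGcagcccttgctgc

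The other 6 are the first entries of the widest regions at a gene start, by rule. The starts of Pilrb1 (chr5:137858050-137858299, minus strand) and Spata3 (chr1:86021695-86021944, plus strand) were covered in wild type only. Those of Tcp10c (chr17:13354322-13354571, plus strand) and Gm15319 (chr8:20363203-20363452, minus strand) were covered in both lists. Those of Serpina1c (chr12:103904951-103905200, minus strand) and Serpina1a (chr12:103863620-103863869, minus strand) were covered in the knockout only. The regions at Pilrb1, Serpina1c and Serpina1a met the other list away from the start.
Pilrb1: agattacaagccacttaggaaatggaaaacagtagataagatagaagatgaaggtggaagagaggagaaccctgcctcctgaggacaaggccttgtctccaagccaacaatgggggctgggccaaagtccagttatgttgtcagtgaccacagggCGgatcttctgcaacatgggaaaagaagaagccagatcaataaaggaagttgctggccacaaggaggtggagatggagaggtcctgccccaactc
Spata3: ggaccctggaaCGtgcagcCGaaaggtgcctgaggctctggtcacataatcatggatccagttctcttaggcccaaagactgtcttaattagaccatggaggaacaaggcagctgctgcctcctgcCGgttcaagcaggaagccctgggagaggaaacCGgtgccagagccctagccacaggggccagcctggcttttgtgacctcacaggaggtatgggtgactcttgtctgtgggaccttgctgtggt
Tcp10c: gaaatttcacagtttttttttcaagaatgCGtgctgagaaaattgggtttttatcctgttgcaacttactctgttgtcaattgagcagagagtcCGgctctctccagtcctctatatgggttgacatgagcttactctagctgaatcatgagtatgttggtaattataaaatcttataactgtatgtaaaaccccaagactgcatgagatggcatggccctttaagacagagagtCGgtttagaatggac
Gm15319: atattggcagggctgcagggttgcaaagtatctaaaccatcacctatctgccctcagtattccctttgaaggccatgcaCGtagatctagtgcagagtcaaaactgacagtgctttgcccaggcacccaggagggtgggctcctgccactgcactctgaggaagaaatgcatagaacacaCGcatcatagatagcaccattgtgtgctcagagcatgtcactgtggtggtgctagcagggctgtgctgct
Serpina1c: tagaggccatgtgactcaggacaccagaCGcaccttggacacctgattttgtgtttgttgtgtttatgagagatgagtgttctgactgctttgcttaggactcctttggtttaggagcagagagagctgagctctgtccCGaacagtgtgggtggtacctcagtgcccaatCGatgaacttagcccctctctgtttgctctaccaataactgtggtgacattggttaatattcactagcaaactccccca
Serpina1a: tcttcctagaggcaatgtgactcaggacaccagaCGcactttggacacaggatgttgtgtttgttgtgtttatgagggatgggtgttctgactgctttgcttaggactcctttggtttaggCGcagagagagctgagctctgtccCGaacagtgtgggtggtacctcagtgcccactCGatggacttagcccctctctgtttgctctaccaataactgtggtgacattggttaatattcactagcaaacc

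Ddx4 held 31 CG pairs in 250 bases, a number reached by 5.19% of the 32851 promoters in the table. Dazl held 20 and Peg3 held 8, against a median of 6 over all promoters. The 6 promoters under the widest regions held 1 to 4, so all of them were below that median. The hexamer TGCCGC, searched on both strands because it is known as a motif of the methylation-dependent KRAB zinc finger protein ZFP57, occurred once in Dazl, in none of the other 8, and in 8.68% of all promoters. The 3 genes chosen after their values were seen do not stand for their class, and CG content was not compared between the classes, since only 62.3% (wild type only), 57.4% (both) and 71.0% (knockout only) of their members have an entry in the promoter table. The sequences are of another build than the regions, so they show the promoter and not the exact bases of a region. By the mm9 start, the region covered all 250 bases before the start for 8 of the genes and 93 of them for Peg3. Tcp10c and the Serpina1 genes belong to families of near-identical copies, between which reads can be split.

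The knockout list had nearly as many regions as the wild-type list but covered less of the genome. Wild-type regions covered 45.2 Mb and knockout regions 38.1 Mb, which is 84.4% of the wild-type bases in 100.6% of the wild-type regions. The near-equal numbers rested on chromosomes 6 and 14, where the knockout had more regions. Without chromosomes 1, 6 and 14 there were 29648 wild-type and 27839 knockout regions, or 93.9%, and the knockout covered 81.0% of the wild-type bases. Knockout regions were narrower, with a median width of 587 bp against 702 bp. Their widths at the 25th and 75th percentiles were 422 and 994 bp, against 459 and 1320 bp in wild type.

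Wide regions were fewer in the knockout. Regions of 5 kb or more numbered 994 in wild type (2.69% of regions, 20.4% of covered bases) and 766 in the knockout (2.06% and 20.8%). The widest single regions lay in the knockout list all the same, the longest measuring 91.1 kb there and 67.3 kb in wild type. Where exactly 1 region of each list met, 14944 pairs could be compared, and 60.1% of them were narrower in the knockout (95% Wilson interval 59.4 to 60.9%). The median knockout width was 0.913 of the wild-type width in these pairs. On chromosome 1 it was 0.705, with 73.5% of 1081 pairs narrower, whereas on chromosome 6 it was 0.992 and 51.0% of 836 pairs were narrower. All intervals given here cover counting error only.

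About as many regions of each list met the other list as did not. Of the wild-type regions, 17945 were retained (48.5%, 48.0 to 49.0%) and 19057 were wild-type-only. Of the knockout regions, 18337 met a wild-type region (49.3%, 48.8 to 49.8%) and 18884 were knockout-only. Shared bases came to 21.7 Mb, which is 48.0% of the wild-type bases, 56.9% of the knockout bases and 35.2% of their union. The wild-type-only regions found by overlap were the same 19057 regions as in the authors' deposited list of that name.

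The sets found in 1 list were made of narrow regions. Median widths were 948 bp for retained and 581 bp for wild-type-only regions, and 738 bp for shared and 511 bp for knockout-only regions. Wild-type-only regions were 51.5% of the wild-type regions but held 33.0% of the bases, and knockout-only regions were 50.7% of the knockout regions with 31.2% of the bases. Knockout regions lay wholly inside wild-type regions more often than the reverse, in 7183 cases (19.3%) against 4158 (11.2%). A retained region was split over 2 or more knockout regions in 1233 cases (6.87%).

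Retention followed width. Of wild-type regions under 300 bp, 34.1% were retained, and the share was also 34.1% between 300 and 500 bp. It was 42.9% between 500 and 1000 bp, 57.0% between 1 and 2 kb, 77.4% between 2 and 5 kb, and 96.0% at 5 kb or more (94.6 to 97.0%). Knockout regions gave the same order apart from the 2 narrowest bins, from 38.0% under 300 bp and 35.1% in the next bin to 97.9% at 5 kb or more. Only 40 wild-type regions and 16 knockout regions of 5 kb or more had no partner. A wide region offers more bases for an overlap of 1 base, and the part of that in this order was not tested.

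**Figure D1:**
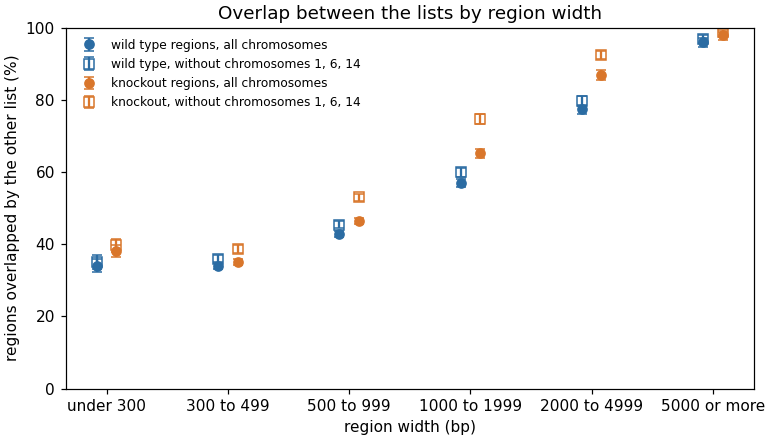
Share of regions overlapped by the other list (y axis, percent) by region width in bp (x axis), for wild-type regions (blue) and knockout regions (orange), on all chromosomes (filled) and without chromosomes 1, 6 and 14 (open squares); bars are 95% Wilson intervals. The share is 34.1% for the narrowest wild-type regions and 96.0% for the widest, and it is higher without the 3 chromosomes in every width bin.

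The widest domains were present in both conditions. The widest wild-type region, chr8:19937381-20004729 (mm9, 67.3 kb), touched Gm15319 and 2610005L07Rik and was fully covered by 1 knockout region of 71.9 kb. Next was chr1:87500240-87559572 (59.3 kb) over Sp140 and Sp100, which encode nuclear body proteins, also fully covered. The remaining ones were chr8:19683807-19739820 (56.0 kb, at 4930467E23Rik), chr11:82938719-82987252 (48.5 kb, no gene of the table) and chr17:13379163-13424967 (45.8 kb, over Gm10512 and the sperm motility kinases Smok1 and Smok2b). Coverage by knockout regions was 90.3% for the chromosome 11 region, split over 9 knockout regions, and 99.8% or more for the other 4. The widest knockout region, chr17:13510632-13601753 (91.1 kb), held the start of Tcp10c and met 4 wild-type regions that together covered 98.1% of it. Sp140 RNA was 0.294 RPKM in wild-type cells against 0.540 RPKM in knockout cells, and Sp100 0.0357 and 0.0378 RPKM. Genes under these domains were thus close to 0 in both conditions, 2610005L07Rik being an exception at 7.71 and 11.5 RPKM.

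The widest regions that were missing from the knockout list were smaller, and 3 of the first 5 lay inside expressed genes. The widest wild-type-only region was chr4:155545375-155558087 (12.7 kb) within Agrn, which encodes a basement membrane proteoglycan, and it held 3 KAP1 peaks. Zfp462 (chr4:55015816-55026073, 10.3 kb), a zinc finger gene, and Klf3 (chr5:65207471-65216398, 8.93 kb), a Krüppel-like repressor, followed. Agrn stood at 60.5 RPKM in wild-type cells against 66.5 RPKM in knockout cells, Klf3 at 18.7 and 14.2 RPKM, and Zfp462 at 22.5 RPKM in wild type. None of these 3 genes was 2-fold higher or lower, with log2 ratios of 0.13 (Agrn), -0.37 (Klf3) and -0.75 (Zfp462) on the log2(RPKM + 1) scale that is used throughout. The ratio understates the change of low genes.

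Of the 5 widest knockout-only regions, 4 lay on chromosome 14, between bases 43935105 and 44676261. The longest of them was chr14:44665650-44676261 (10.6 kb), which touched no gene of the table. The fifth was on chromosome 6 within Vopp1 (chr6:57701595-57708378, 6.78 kb), whose RNA stood at 1.48 RPKM in wild-type cells against 11.6 RPKM in knockout cells (log2 ratio 2.34).

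The 2 lists differed by chromosome. Chromosome 1 had 3918 regions in wild type and 2285 in the knockout, and its covered length went from 4.67 to 2.14 Mb (45.8%). Chromosome 6 had 1864 and 3901 regions, 209% of the wild-type number, and chromosome 14 had 1572 and 3196, or 203%. Their covered lengths were 172% and 177% of wild type. On each of the other 18 chromosomes the knockout covered fewer bases, from 52.4% of wild type on chromosome 18 to 99.6% on Y. Region numbers there lay between 72.3% (chromosome 18) and 108% (chromosome 7), with 15 of the 18 below 100%. The median width was smaller in the knockout on 20 of 21 chromosomes, X being the exception at 504 against 501.5 bp. The knockout list also held 4 regions on the mitochondrial genome.

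**Figure D2:**
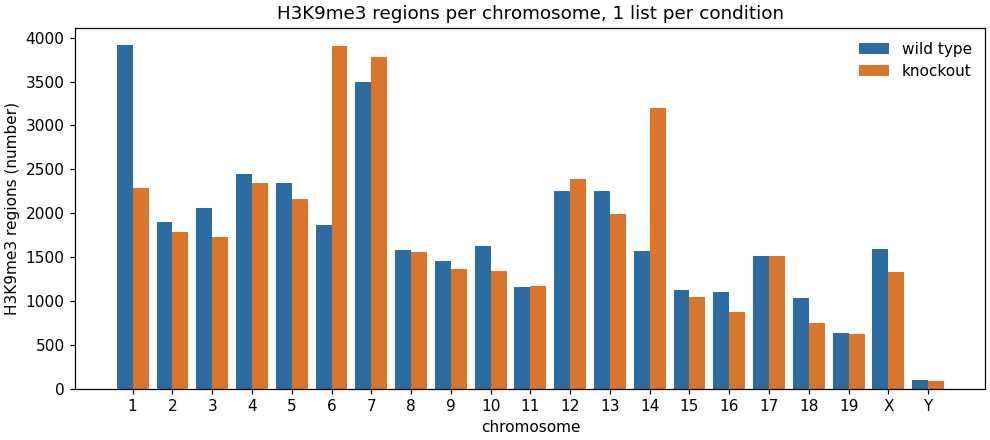
Number of H3K9me3 regions (y axis) on each chromosome (x axis) in the wild-type list (blue) and the knockout list (orange), 1 list per condition. Chromosome 1 has 3918 and 2285 regions, chromosome 6 has 1864 and 3901, and chromosome 14 has 1572 and 3196.

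These 3 chromosomes weighed on the sets found in 1 list. Chromosomes 6 and 14 held 5450 of the knockout-only regions (28.9%), and chromosome 1 held 2703 of the wild-type-only regions (14.2%). Chromosome 1 retained 31.0% of its wild-type regions, the lowest share of any chromosome, and Y retained 75.3%, the highest. Without the 3 chromosomes, 51.1% of wild-type regions were retained and 55.4% of knockout regions met a wild-type region.

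The surplus was gathered in blocks of several megabases. The genome was divided into bins of 5 Mb, and 469 bins held at least 60 regions over both lists. At least 2-fold more regions in the knockout were found in 28 bins (5.97%), and at least 2-fold fewer in 34 bins (7.25%). Of the 28, chromosome 6 held 12 and chromosome 14 held 10. Of the 34, chromosome 1 held 13, and chromosomes 6 and 14 held 3 each. The 377 bins elsewhere gave 6 higher and 15 lower.

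**Figure D3:**
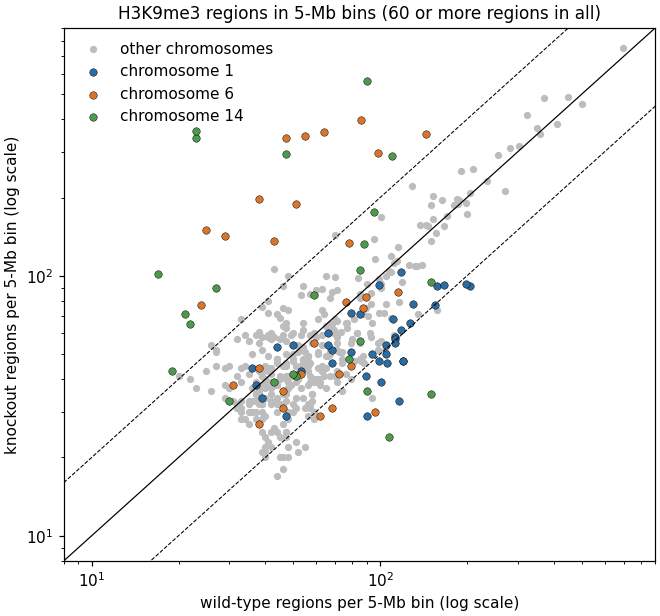
Number of knockout regions (y axis, log scale) against wild-type regions (x axis, log scale) in each of 469 bins of 5 Mb, with equality (solid line) and 2-fold (dashed lines). Bins of chromosome 6 (orange) and chromosome 14 (green) lie above the upper dashed line in 12 and 10 cases, and 13 bins of chromosome 1 (blue) lie below the lower one.

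Runs of at least 3 such neighbouring bins occurred on these chromosomes only. On chromosome 6 the run spanned 12 bins from 90 Mb to 150 Mb, up to the distal end of the chromosome, with 704 wild-type and 2975 knockout regions. On chromosome 14, bins from 40 to 60 Mb had 175 and 1027 regions, and those from 110 to 125 Mb had 73 and 791. Between them, from 75 to 90 Mb, the direction was the opposite, with 347 wild-type and 95 knockout regions. On chromosome 1 the runs were 135 to 155 Mb (406 and 148 regions) and 165 to 185 Mb (572 and 271 regions).

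Within the blocks of surplus the wild-type regions were mostly kept, and the knockout added to them. Of the wild-type regions, 67.8% were retained in the chromosome 6 run, 72.0% in the run from 40 to 60 Mb of chromosome 14 and 67.1% in that from 110 to 125 Mb, against 48.5% over the whole list. The knockout-only regions in these 3 runs numbered 2495, 905 and 740. In the opposite blocks 17.0% (chromosome 14), 20.9% and 27.6% (chromosome 1) of the wild-type regions were retained. The blocks were picked by their region counts, and retention depends on how many knockout regions are there to overlap. These shares are therefore no result separate from the counts.

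RNA, a readout that did not make the lists, went with the blocks on chromosome 14 and not on chromosome 6. Over all 12024 genes measured at 1 RPKM or more in either condition, the median log2 ratio was 0.08, 12.5% were at least 2-fold higher and 3.18% at least 2-fold lower. From 110 to 125 Mb of chromosome 14, 25 of 27 measured genes were at least 2-fold higher and the median was 1.77. From 40 to 60 Mb, 37 of 128 were higher, with a median of 0.73. In the block from 75 to 90 Mb, where the knockout had fewer regions, 8 of 30 genes were lower, 1 was higher and the median was -0.66. In the chromosome 6 run the median was 0.13, with 30 of 246 genes higher and 5 lower. The chromosome 1 runs had medians of -0.23 (67 genes) and -0.18 (117 genes).

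By chromosome, the median RNA ratio was 0.59 on chromosome 14. The next was 0.27 on X, and the lowest was -0.07 on chromosome 17. Bins of chromosome 14 with less than a 2-fold difference in regions had a median of 0.38 over 156 genes. On chromosome 14, more regions of a repressive mark and more RNA thus stood in the same blocks. KAP1 peaks of wild-type chromatin, another readout, numbered 197 on chromosome 14 when called over input and 261 when called over knockout chromatin. On the other 19 chromosomes apart from Y, which had 1 and 2 peaks, the number over knockout was smaller. From 110 to 125 Mb of chromosome 14 there were 52 peaks over input and 100 over knockout. The other blocks did not have this surplus of peaks over knockout. From 40 to 60 Mb of chromosome 14 there were 30 and 15, and from 75 to 90 Mb 14 and 14. The chromosome 6 run had 65 and 60. Whether the number of DNA copies of these blocks differed between the cultures was not tested, and the input libraries were not analysed here. Region numbers, KAP1 peaks and RNA in these blocks therefore cannot be read as changes per DNA copy.

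**Figure D4:**
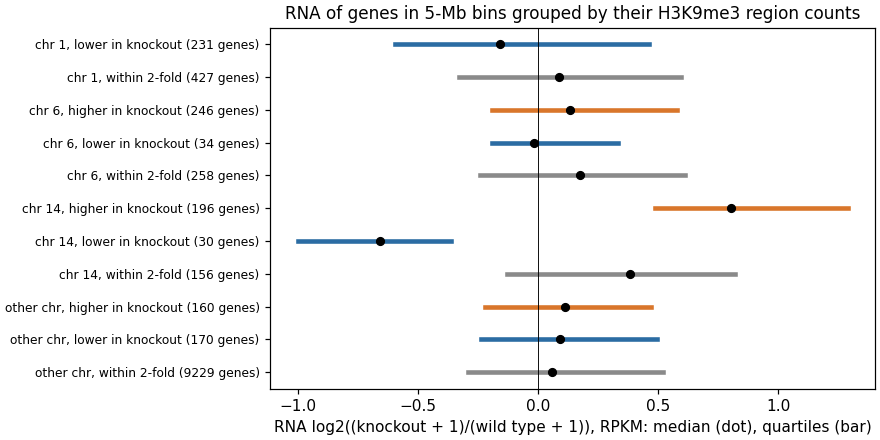
Median (dot) and quartiles (bar) of the RNA log2 ratio of knockout over wild type (x axis, pseudocount 1 RPKM) for measured genes in 5-Mb bins, grouped by chromosome and by whether the bin had at least 2-fold more (orange) or fewer (blue) knockout regions or neither (grey). On chromosome 14 the medians are 0.80 in bins with more regions and -0.66 in bins with fewer, and on chromosome 6 they are 0.13 and -0.02.

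H3K9me3 regions came in clusters in both conditions. When regions less than 10 kb apart were chained, 46.7% of wild-type and 45.4% of knockout regions lay in clusters of 3 or more. Clusters of 10 or more were commoner in the knockout, 407 with 23.6% of its regions against 303 with 16.4%. Without chromosomes 1, 6 and 14 the numbers were 305 (25.3%) and 280 (19.2%). The order of the numbers turned when regions up to 50 kb apart were chained, with 419 clusters of 10 or more in the knockout and 467 in wild type, although these still held 44.5% and 35.9% of the regions. The median gap between neighbouring regions was 11.9 kb in wild type and 12.4 kb in the knockout.

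Clustered regions were retained more often. Of wild-type regions standing alone 39.2% were retained, and of those in clusters of 10 or more 80.0%. The clustered ones were also wider, with medians of 582 and 1127 bp. Among knockout regions the shares were 40.1% and 61.8%, and the latter was 72.1% without the 3 chromosomes.

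The cluster with the most regions in both lists lay over a family of KRAB zinc finger genes on distal chromosome 4. It spanned chr4:146316719-146961522 (645 kb), and its 146 wild-type regions covered 71.6% of that length. Of these, 125 (85.6%) were retained, and 158 knockout regions lay in the same span. Rex2 and Zfp991 lie in it. Rex2 had 2.84 RPKM in wild-type cells against 6.61 RPKM in knockout cells, and Zfp991 had 2.35 and 10.6 RPKM. RNA of both genes was thus higher in the knockout where most of the wild-type regions still met a knockout region. The region at the Rex2 start measured 9.45 kb in wild type and 4.79 kb in the knockout, and that at Zfp991 6.83 and 6.55 kb. Other large clusters were chr7:33426198-33935615 (122 wild-type regions, 93.4% retained, no gene of the table), chr3:93676221-94059087 (97 regions, 81.4%) over Tdpoz5 and Tdpoz7, and chr10:81120971-81493196 (80 regions, 93.8%) at Zfp781. Tdpoz5 and Tdpoz7, of a family expressed in early embryos, both stood at 0 and 0.394 RPKM, and reads of such near-identical copies may not be told apart, and the same limit holds for the zinc finger genes of a cluster. A cluster of 108 knockout regions, of which 75.9% met a wild-type region, lay at chr13:12792662-13170438 over the prolactin family genes Prl2c3 and Prl2c2. The fifth in the knockout, chr6:123326475-123614602, had 82 regions where wild type had 34, and 36.6% of the 82 met one.

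Most of the mark lay away from genes. RefSeq gene spans of the RNA table take up 34.1% of the chromosomes' extent, and they held 16.8% of the wild-type and 19.2% of the knockout bases. A gene start lay more than 100 kb away for 49.8% of wild-type and 51.0% of knockout regions. A start lay within 20 kb for 16.8% of retained, 18.7% of wild-type-only and 17.9% of knockout-only regions, and for 16.9%, 18.99% and 19.8% without chromosomes 1, 6 and 14.

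The classes differed more in gene bodies. A gene span was touched by 15.6% of retained regions (15.1 to 16.2%), by 19.4% of wild-type-only regions (18.8 to 19.9%) and by 28.3% of knockout-only regions (27.7 to 29.0%). Knockout-only regions kept the highest of these shares without chromosomes 1, 6 and 14, at 26.8%, and they are also the narrowest class. A start inside the region itself was rare, in 0.752% of retained, 0.252% of wild-type-only and 0.376% of knockout-only regions.

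Seen from the genes, few starts were covered. Of 17818 genes, 191 had their start in a wild-type region (1.07%) and 229 in a knockout region (1.29%). The start was covered in wild type only for 69 genes (0.387%), in both for 122 (0.685%) and in the knockout only for 107 (0.601%). Of the 107, 13 lay on chromosome 6 and 5 on chromosome 14.

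Genes with starts in both lists included neighbouring zinc finger genes on chromosome 4. Of 326 Zfp genes, which encode zinc finger proteins, 8 (2.45%, 1.25 to 4.77%) had their start in a wild-type region and 8 in a knockout region, against 1.07% and 1.29% of all genes. The interval is the same for the knockout, where it holds the share of 1.29%. The start was covered in both lists for 7 of them, in wild type only for 1 and in the knockout only for 1. These 7 starts all lie on chromosome 4, between bases 145260588 and 147076729, so they are not 7 separate events. The intervals do not allow for this. Zfp979, Zfp600, Zfp991 and Zfp992 had the widest regions at their starts. The region at Zfp979 measured 28.7 kb in wild type and 11.3 kb in the knockout. At Zfp600 it measured 15.2 and 8.48 kb, and at Zfp992 0.920 and 4.66 kb. Zfp992 RNA was 2.54 RPKM in wild-type cells against 12.6 RPKM in knockout cells, Zfp600 had 2.88 and 6.79 RPKM, and Zfp979 had 10.1 and 15.0 RPKM. RNA was higher in the knockout for these 3 genes while their starts lay in regions of both lists, and only Zfp979 stayed within 2-fold.

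Imprinted genes, of which 1 parental allele is silent, had 3 of 37 starts in a wild-type region (8.11%, 2.80 to 21.3%) and 1 of them also in a knockout region, against 1.07% and 1.29% of all genes. Peg3 was covered at its start in wild type only, by a region of 744 bp, chr7:6682482-6683225, which held 2 KAP1 peaks. Its RNA was 5.18 RPKM in wild-type cells against 16.6 RPKM in knockout cells (log2 ratio 1.51). Nnat, a paternally expressed gene, was covered in both lists, by 297 bp in wild type and 826 bp in the knockout, and its RNA stood at 10.4 and 33.1 RPKM (1.58). Meg3, a maternally expressed non-coding RNA, was covered at its start in wild type only, by 1.89 kb with a KAP1 peak, chr12:110778328-110780215. It stood at 14.8 RPKM in wild-type cells against 10.1 RPKM in knockout cells (-0.51), so of 3 imprinted starts that were covered, 2 had 2-fold more RNA and 1 had not.

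Germline genes had 3 of 22 starts covered in wild type only, 3 in the knockout only and none in both lists, where the shares over all genes are 0.387%, 0.601% and 0.685%. Dpep3 (a dipeptidase of the testis), Ddx4 and Dazl were covered in wild type only. Tuba3a (a testis tubulin), Mov10l1 (an RNA helicase of the piRNA pathway) and Mael (a piRNA pathway protein) were covered in the knockout only. Tuba3a lies in the chromosome 6 run of surplus knockout regions, and Mov10l1 in a bin of chromosome 15 with 43 wild-type and 106 knockout regions. Mael lies in the chromosome 1 run from 165 to 185 Mb, where the knockout had fewer regions. The region at the Ddx4 start was chr13:113441742-113443518 (1.78 kb), and the RNA stood at 2.20 and 4.06 RPKM. Dazl, with a region of 752 bp at chr17:50432877-50433628, stayed under 1 RPKM, at 0.367 and 0.722 RPKM. Dpep3 had 0.504 and 1.44 RPKM, Tuba3a 4.13 and 5.54 RPKM, Mov10l1 0.684 and 1.18 RPKM and Mael 6.18 and 2.70 RPKM. None of the 6 reached a 2-fold ratio on the log2(RPKM + 1) scale, and Mael was the only one lower in the knockout.

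Of 13 two-cell stage genes 4 were covered: Gm8300 and Tdpoz1 in wild type only, BC080695 in both and Tdpoz4 in the knockout only. BC080695 was listed at 0 RPKM in wild type and stood at 6.69 RPKM in the knockout, where its region measured 13.5 kb against 3.64 kb in wild type. Of 240 olfactory and vomeronasal receptor genes, which are silent outside sensory neurons, 11 were covered in the knockout only, 2 in both and 1 in wild type only. Over all genes the shares of these classes were 0.601% (knockout only), 0.685% (both) and 0.387% (wild type only). Of the 11, 3 lay on chromosome 6, and all 11 were under 1 RPKM in both conditions. The 3 on chromosome 6 were the neighbours Vmn1r45, Vmn1r47 and Vmn1r48, and Olfr91, Olfr92 and Olfr93 were neighbours on chromosome 17. The 11 are therefore not 11 separate events. No start was covered among 36 protocadherin, 38 Hox, 25 primitive endoderm, 21 pluripotency, 22 TRIM28 pathway and 18 housekeeping genes. With 1.07% of all starts in a wild-type region and 1.29% in a knockout region, lists of this size can hold none at the background share, and the upper limits for them lie between 9.18% (Hox) and 17.6% (housekeeping).

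Near gene starts the Hox genes, the regulators of body axis patterning, differed between the lists. A knockout region but no wild-type region lay within 20 kb of the start of 19 of 38 Hox genes, against 9.74% of all genes, and no Hox gene had a wild-type region alone there, against 9.84% of all genes. Regions of both lists lay near 3 Hox genes and near 14.5% of all genes. The Hoxa cluster on chromosome 6 had no wild-type region and 4 knockout regions, and the Hoxc cluster on chromosome 15 had 0 and 4. The Hoxb cluster on chromosome 11 had 3 and 8, and the Hoxd cluster on chromosome 2 had none in either list. Genes of a cluster share these few regions, so the 19 genes are not 19 separate events. The 38 and the 19 include the antisense transcript Hoxa11as, which the RNA sums by cluster leave out. Hox RNA was low, with sums of 1.63 RPKM in wild-type cells against 3.50 RPKM in knockout cells over 11 Hoxa genes and of 1.15 and 4.66 RPKM over 8 Hoxc genes. The sums were also higher in the knockout for 10 Hoxb genes, at 1.01 and 3.79 RPKM, and for 8 Hoxd genes, which had no region nearby, at 0.791 and 2.45 RPKM. Hoxc13 had 0.760 and 3.44 RPKM, and Hoxb9 had 0.318 and 1.77 RPKM. The 13 two-cell stage genes lay within 20 kb of a region without exception, 11 near regions of both lists and 2 near knockout regions only. They include family members such as Tdpoz1 and Tdpoz4, close together on chromosome 3, so they are not 13 separate events either.

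RNA of genes with a covered start was compared by the list that the region came from. Over all members, 12 of 69 genes covered in wild type only were at least 2-fold higher (17.4%, 10.2 to 28.0%) and 0 were lower. Of 122 genes covered in both lists 23 were higher (18.9%, 12.9 to 26.7%) and 1 was lower, and of 107 covered in the knockout only 14 were higher (13.1%, 7.96 to 20.8%) and 1 was lower. Over all 17818 genes the shares were 8.46% higher and 2.14% lower. The intervals of the 3 classes overlap, and that of the genes covered in the knockout only holds the share over all genes. Genes with a covered start were also lower in wild type, with median levels of 0.204, 0.0765 and 0.0170 RPKM in the 3 classes against 2.49 RPKM over all genes, and 38, 70 and 72 of them were under 1 RPKM in both conditions. A gene under 1 RPKM in wild type cannot be 2-fold lower on this scale.

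The single genes named by rule differed within each class. Ept1, a phospholipid-synthesis enzyme, was covered at its start in wild type only, by 5.05 kb (chr5:30555352-30560402) with a KAP1 peak. Ept1 RNA was 1.42 RPKM in wild-type cells against 10.6 RPKM in knockout cells (log2 ratio 2.27). Sfi1, a centrosome protein, was covered in both lists, by 19.5 kb in wild type and 50.7 kb in the knockout, with 6.06 and 15.7 RPKM (1.24). AA792892 was covered in the knockout only by 4.54 kb (chr5:94808996-94813534), and stood at 0.190 and 6.11 RPKM (2.58). Gm13109, its start also covered in the knockout only, by 3.88 kb (chr4:143544350-143548231), was listed at 0 in wild type and stood at 6.90 RPKM in the knockout. Both were under 1 RPKM in wild type and so passed the filter on low values only through the knockout. Ratios stayed within 2-fold for the next genes. Usp14, a deubiquitinating enzyme of the proteasome, was covered at its start in wild type only, by 4.07 kb, and stood at 12.9 and 14.6 RPKM. Gm8994, on chromosome 6, was covered at its start in the knockout only, by 4.13 kb, and stood at 10.5 and 8.81 RPKM. The widest regions at starts covered in the knockout only measured 17.0 kb at Serpina1c (chr12:105130553-105147591) and 12.2 kb at Serpina1a (chr12:105090204-105102358). These liver-type protease inhibitor genes had 0.0108 and 0.0371 RPKM and 1.32 and 1.92 RPKM. Both regions were wider than the widest knockout-only region (10.6 kb), so each met a wild-type region away from the gene start.

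KAP1 peaks, called by the authors from wild-type chromatin over input, were another readout that did not make the H3K9me3 lists. Of 3099 peaks, 945 lay in a wild-type region (30.5%) and 701 in a knockout region (22.6%), of which 554 lay in both. In a wild-type region only lay 391 peaks (12.6%), in a knockout region only 147 (4.74%), and in neither 2007 (64.8%). The authors' peak scores had medians of 71.8 for peaks in a wild-type region only, 68.4 in both, 62.7 in a knockout region only and 57.2 in neither.

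Few H3K9me3 regions held a KAP1 peak. The share was 2.38% of all wild-type regions and 1.76% of all knockout regions. It was 3.14% of retained (2.89 to 3.40%), 1.66% of wild-type-only (1.49 to 1.85%) and 0.736% of knockout-only regions (0.624 to 0.868%).

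The order of retained and wild-type-only regions depended on width. Under 300 bp, 1.80% of retained (1.14 to 2.83%) and 0.517% of wild-type-only regions (0.281 to 0.949%) held a peak, and between 300 and 500 bp 0.742% (0.486 to 1.13%) and 0.603% (0.429 to 0.845%). Between 500 and 1000 bp the shares were 0.871% (0.657 to 1.15%) and 1.06% (0.854 to 1.33%). Between 1 and 2 kb the shares were 2.19% (1.80 to 2.66%) and 2.94% (2.42 to 3.57%). Between 2 and 5 kb they were 6.30% (5.52 to 7.20%) and 8.84% (7.19 to 10.8%). At 5 kb or more, 176 of 954 retained regions (18.4%, 16.1 to 21.0%) and 14 of 40 wild-type-only regions (35.0%, 22.1 to 50.5%) held one. Retained regions thus had the higher share in the 2 narrowest bins and wild-type-only regions in the 4 bins from 500 bp upward, with intervals that do not overlap in the narrowest and the widest bin. Without chromosomes 1, 6 and 14 the shares at 5 kb or more were 17.8% and 34.6% (9 of 26 wild-type-only regions), with intervals of 15.4 to 20.6% and 19.4 to 53.8%, which overlap.

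**Figure D5:**
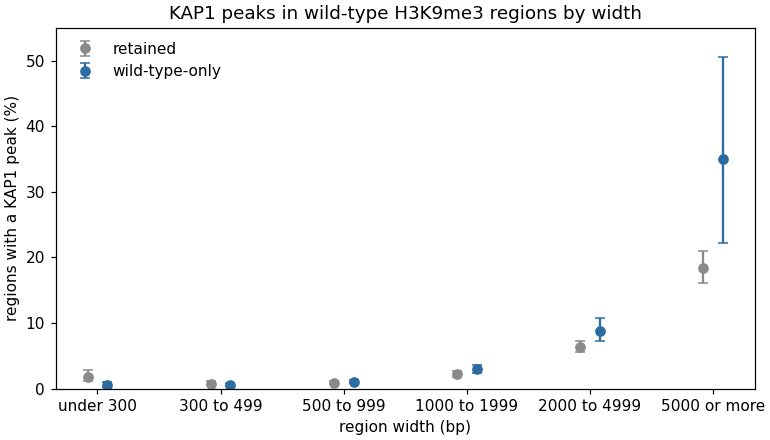
Share of wild-type H3K9me3 regions with a KAP1 peak (y axis, percent) by region width in bp (x axis), for retained (grey) and wild-type-only regions (blue); bars are 95% Wilson intervals. At 5 kb or more the shares are 18.4% and 35.0%, while under 300 bp they are 1.80% and 0.517%.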

How the data were processed

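H3K9me3 regions were deposited by the authors as starts and ends in mm9 with no header; mm9 and Bowtie are named per the submitters' processing notes, and the region caller is not given in the sources used here. Per the labels' protocols, immunoprecipitations were made in duplicate or triplicate, RNA came from pooled duplicates, and each condition is 1 library, so shares have 95% Wilson intervals and no test was run. The authors deposited a score per KAP1 peak, whose scale is not stated and whose lowest value is 50.01; names of these peaks, in the deposited files, start with MACS. RPKM values were deposited by the authors per RefSeq transcript, with no counts. The ES columns carry only wild type and knockout and were read as ES3, the ES pair labelled so.

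Of 22631 rows, 1 transcript was used per symbol, that of the highest mean (17818 symbols); 780 rows without a symbol and 40 with a date in its place took the RefSeq symbol or transcript name. Genes at 1 RPKM or more in either condition (12024) were called measured, and a 2-fold change was counted on log2((knockout + 1)/(wild type + 1)). Genes at 0 in wild type pass that filter only through the knockout. Overlap meant 1 base, near meant 20 kb with strand considered, and clusters chained regions less than 10 kb apart. Coordinates are 1-based. Named genes follow a rule: the 8 widest covered starts per class, the 5 widest regions and largest clusters with up to 3 genes, up to 4 covered members per list, and 2 promoters per class; Dazl, Mael, the 3 promoters given first, the widest regions of 1 list and the Hox genes were chosen after their values were seen. The members and lists were chosen with earlier results of these data known. Promoters are from RefSeq (GRCm38.p6) and all 9 symbols matched. The highest region end on chromosome 1, 197195195, exceeds the highest gene end there in GRCm38.p6, 195291439, so no coordinates were carried between builds. Overlap and cluster steps were tested on simulated regions. Python 3.11.15, pandas 2.3.3, numpy 2.4.6, scipy 1.17.1 and matplotlib 3.10.9 were used. Alternatives were other overlaps, widths, chaining and gene distances, other pseudocounts and filters, and other KAP1 peak sets. Libraries of other cells and marks were not analysed here.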

Additional observations from a re-analysis of the deposited data

How the results depend on the processing

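No paired analysis was possible because each condition has 1 region list and 1 RNA library, and for the same reason no replicate could be left out. The number of knockout regions, 100.6% of wild type, turned below 100% when only regions at least as wide as the wild-type median were kept (78.9%) and without chromosomes 1, 6 and 14 (93.9%), the latter an alternative chosen after seeing the data; merging regions under 1 kb apart gave 103%. Covered bases were 76.0% of wild type with the wider regions, 84.1% without X and Y and 81.0% without chromosomes 1, 6 and 14. With these 3 chromosomes left out, 51.1% of wild-type regions were retained, 55.4% of knockout regions were shared and 50.8% of wild-type bases were shared, and 48.4% of wild-type and 44.8% of knockout regions were clustered. When 50% of a region had to be covered, 37.6% of wild-type and 43.7% of knockout regions were shared, and when a region within 1 kb counted, 53.3% of both were (53.27% of the knockout regions). Among the wider regions the shares were 43.2% and 55.3%, with 46.9% of wild-type bases shared. Without X and Y, 48.6% of knockout regions and 47.5% of wild-type bases were shared. Chaining within 5 kb put 36.2% of wild-type and 35.1% of knockout regions in clusters, and within 50 kb 72.1% and 69.8%.

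A start within 5 kb was found for 4.85% of retained, 4.23% of wild-type-only and 5.93% of knockout-only regions, and within 50 kb for 32.4%, 36.2% and 33.5%, so the order of the classes changed with the distance. With classes set by an overlap of 50% it was 16.1% of retained regions within 20 kb, and without the 3 chromosomes 19.8% of knockout-only regions. Gene spans were touched by 14.9%, 18.7% and 26.8% of the 3 classes without those chromosomes, and held the midpoint of 15.0% of retained regions. KAP1 peaks called against the knockout gave 2.44% of retained and 1.26% of wild-type-only regions. Peaks with at least the median score gave 2.16%, 1.18% and 0.434% for the 3 classes, and peaks within 1 kb 3.60%, 2.34% and 1.09%. A region within 5 kb of the start was found for 14.7% of Zfp, 43.2% of imprinted, 40.9% of germline and 34.2% of receptor genes. The share over all genes at 5 kb is not given here, so these shares cannot be read as enrichment. Among measured genes, those at least 2-fold higher were 38.7% (wild type only), 44.2% (both) and 40.0% (knockout only) of 31, 52 and 35. Of these members, 16, 19 and 15 were under 1 RPKM in wild type and so passed the filter only through the knockout, which raises the shares. Over all 12024 measured genes the share was 12.5%, and 1204 were under 1 RPKM in wild type. A pseudocount of 5 RPKM gave 19.4%, 13.5% and 17.1%, and one of 0.1 RPKM gave 59.6% for genes in both. The shares over all genes at these 2 pseudocounts are not given here. No filter gave 17.4%, 18.9% and 13.1%, against 8.46% over all genes. Other values moved by less than their counting error. The cause of these shifts was not tested beyond what each alternative changes by construction. Depth and signal are unknown, so a region absent from a list may fall just under its threshold.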
